A study of Arabidopsis thaliana with 8 samples.

Results

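The arrays carried 75 probes named for microRNA stem-loops, 1 for each of 75 microRNA genes, among 27462 gene and stem-loop probes in all. The stem-loop genes were taken as every probe whose symbol begins with ath-MIR in the intensity files of the 3 d arrays. All 75 symbols matched 1 microRNA locus each by name in the RefSeq gene table, and they fall into 22 families by the number in the name. Isolated embryos of Arabidopsis thaliana (ecotype Col-0 per the labels) were compared on 2-colour arrays at 3 d and at 6 d after pollination, with 4 arrays a stage that the labels call biological replicates. The bdl cross had M0191 as its female parent and bdl as its male parent. The Col-0 cross had M0171 as its female parent and Col-0 as its male parent, so both parents differ between the crosses. What distinguishes the lines M0191 and M0171 is not described in the labels, nor is the number of embryos behind an array. On replicates 1 and 2 of each stage the bdl cross was labelled with Cy5 and the Col-0 cross with Cy3, and on replicates 3 and 4 the dyes were exchanged.

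A microRNA gene is transcribed by RNA polymerase II into a primary transcript that folds into a stem-loop. DICER-LIKE1, with HYPONASTIC LEAVES1 and SERRATE, cuts the mature microRNA out of it, and ARGONAUTE1 uses the mature strand to cleave or repress messages with a matching site. In plant embryos these messages include many transcription factors, among them the class III HD-ZIP genes (miR165/miR166), the SPL genes (miR156/miR157) and auxin response factors (miR160 and miR167). The probe names give the stem-loop, and the RNA was amplified before labelling, so the values below are not read as levels of mature microRNA. bdl is known as an allele of BODENLOS, an AUX/IAA protein that holds back auxin-responsive transcription in the embryo.

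About as many stem-loop genes gave signal above the blank spots at 3 d as did not. Blank spots were the 1743 positions named EMPTY or 3XSSC, of which 711 to 782 had a deposited value on an array. A gene was counted as above them on an array where either cross exceeded their 95th percentile in its own channel. That percentile was taken over the blank spots with a value. By that measure 36 of 75 stem-loop genes (48.0%) were above blank spots on at least 2 of 4 arrays, against 22089 of 27387 gene probes (80.7%). At the 99th percentile the stem-loop count was 14, and against EMPTY spots alone it was 40. On all 4 arrays it was 15 stem-loop genes (20.0%) against 17872 gene probes (65.3%). Another 18 stem-loop genes passed on a single array, and 21 passed on none. The blank-spot limit itself lay between 24.5 and 81.2 intensity units over the 8 channels. Of the 75 genes, 24 had a deposited value on all 4 arrays and 18 on a single array, which was replicate 4 for 13 of them. Only 4 stem-loop genes had a mean intensity above the median of the gene probes, which was 226.9. Among them, MIR164c had a value on replicate 2 alone, and MIR166a exceeded that median on replicate 1 alone.

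**Figure D1:**
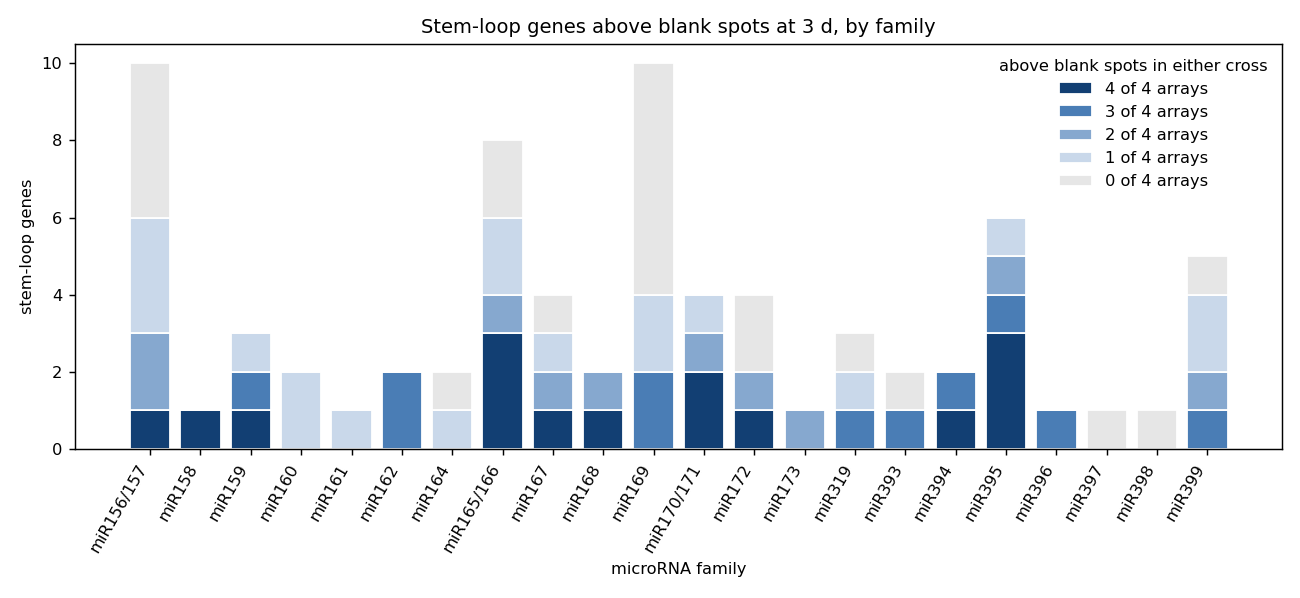
Number of stem-loop genes (vertical axis) in each microRNA family (horizontal axis), coloured by the number of 3 d arrays on which either cross exceeded the 95th percentile of blank spots. The miR395 family has 5 of 6 genes above blank spots on at least 2 arrays, and the miR169 family 2 of 10.

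The families differed in how many of their genes gave signal. In the miR395 family, which targets sulfate assimilation and transport genes, 5 of 6 genes were above blank spots on at least 2 arrays. The RefSeq table places these genes in a pair of clusters, MIR395a to MIR395c and MIR395d to MIR395f, and both clusters held genes above blank spots. In the miR165/miR166 family it was 4 of 8 genes, in the miR170/miR171 family 3 of 4, and in the miR156/miR157 family 3 of 10. Of the 10 miR169 genes, whose targets are NF-YA subunits of a CCAAT-binding factor, 2 passed. MIR169i, MIR169j, MIR169k, MIR169m and MIR169n neighbour each other in the RefSeq table, and of these MIR169k passed, on 3 arrays. No gene of the miR160, miR161, miR164, miR397 or miR398 families passed on 2 arrays.

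The largest intensities among the 15 genes above blank spots on all 4 arrays came from miR165/miR166 genes. MIR166f read 418, 924, 647 and 771 in the bdl cross and 438, 489, 659 and 670 in the Col-0 cross on replicates 1 to 4. Every MIR166f value lay above every blank-spot limit, and the crosses overlapped. MIR166b read 128, 252, 161 and 227 in the bdl cross against 151, 216, 144 and 233 in the Col-0 cross, again with full overlap. MIR166a stood apart on 1 array: replicate 1 read 1899 in the bdl cross and 4570 in the Col-0 cross, while the other 3 arrays read 112 to 126 and 89.1 to 175. Intensities of different probes also depend on the probe, so this order is not an order of RNA levels. The genes of a family share most of their mature sequence, and whether their probes bind each other's transcripts was not tested.

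**Figure D2:**
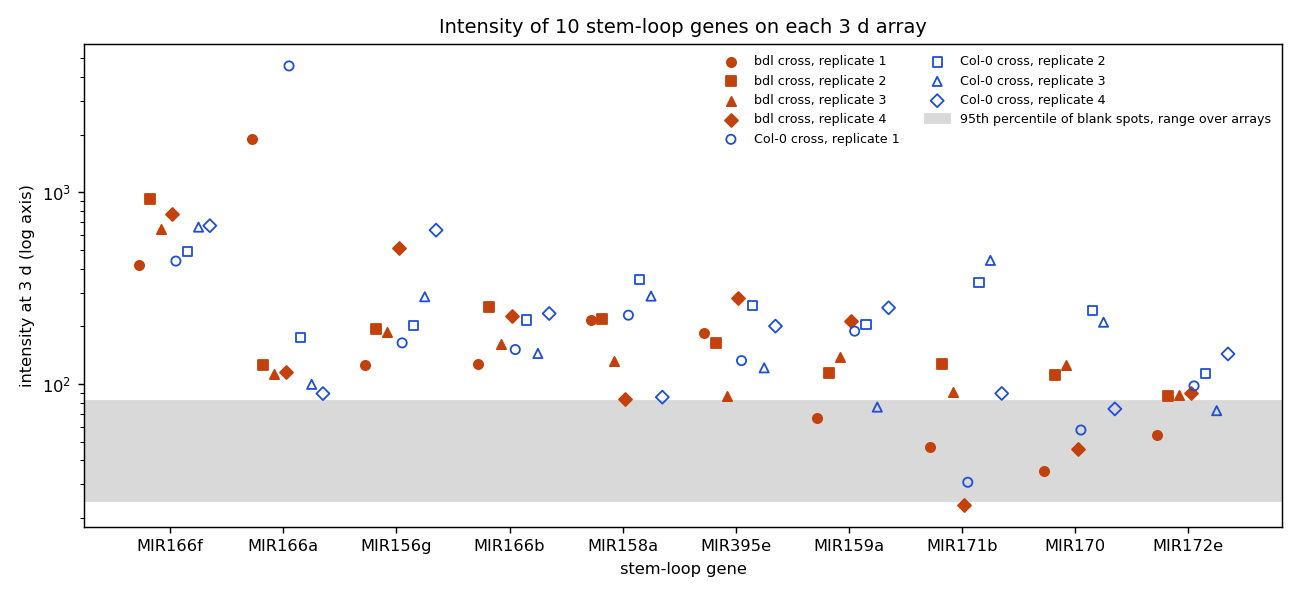
Intensity at 3 d (log axis) of the 10 stem-loop genes of highest mean intensity among those above blank spots on all 4 arrays. Filled symbols are the bdl cross and open symbols the Col-0 cross, 1 symbol an array; the grey band spans the 95th percentiles of blank spots, 24.5 to 81.2. MIR166f lies above the band on every array, and MIR166a on replicate 1 lies far above its other arrays.

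The other 7 genes of that group of 10 came from 6 further families. MIR156g, of the family that restrains SPL factors, read 126, 194, 187 and 514 in the bdl cross and 164, 202, 285 and 635 in the Col-0 cross. The bdl value was the lower on all 4 arrays, although the ranges overlapped, and the log2 ratio of −0.34 ± 0.11 (SE, n = 4) did not pass the test (limma adjusted p = 0.133). MIR156g overlaps a protein-coding locus, AT2G19420, in the RefSeq table, and the strand its probe reads is not given, so its signal cannot be assigned to the microRNA gene alone. MIR158a read 216, 219, 131 and 83.5 in the bdl cross and 229, 351, 288 and 85.4 in the Col-0 cross, lower in the bdl cross on each array (−0.48 ± 0.25, adjusted p = 0.282 with limma). MIR395e read 86.9 to 282 and 121 to 256 in the bdl and Col-0 crosses. MIR159a, whose family targets GAMYB-like factors, read 66.5 to 214 and 75.8 to 250. MIR172e, of the family that represses AP2-like factors, read 54.1 to 89.9 and 72.6 to 143. For these genes the crosses overlapped and the test was not passed (limma adjusted p from 0.285 to 0.943).

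The comparison of the crosses at 3 d called 2 stem-loop genes, both lower in the bdl cross, of 34 tested. A gene was called where limma's adjusted p, taken over all probes tested, was under 0.05. Over all 21439 probes the same test called 2372 (11.1%), with 5.99% called higher and 5.07% called lower, so the stem-loop share of 5.88% lay below the background. No stem-loop gene was called higher. The 34 log2 ratios of the bdl over the Col-0 cross ran from −1.81 to 1.98 with a median of −0.24, and 22 of them were negative. Over all probes tested the median was −0.01. The arrays disagreed more for stem-loop genes: the median SD over arrays was 0.96 against 0.22 for gene probes. Gene probes were also brighter, with a median mean intensity of 226.9 against 35.6. Gene probes as dim as the stem-loop genes were not compared, so the larger SD is not shown to be particular to stem-loops.

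MIR170 was called lower (log2 ratio −0.82 ± 0.10, n = 4, limma adjusted p = 0.0415). It read 35.2, 111, 125 and 45.9 in the bdl cross and 57.5, 242, 210 and 74.1 in the Col-0 cross. The bdl value was the lower on every array, with log2 ratios of −0.71, −1.12, −0.75 and −0.69. The Col-0 cross was above blank spots on 4 arrays and the bdl cross on 2. The bdl values on replicates 1 and 4 lay under the blank-spot limits of 77.1 and 81.2, so no fold is given. The call was lost when the spread was fitted with an intensity trend (adjusted p = 0.0928) and when dim probes were not filtered out (adjusted p = 0.0502). MIR171b of the same family read 46.9, 128, 90.7 and 23.4 against 30.7, 338, 442 and 89.3, with a log2 ratio of −1.25 ± 0.41 that did not pass (limma adjusted p = 0.142). MIR171b was lower in the bdl cross on replicates 2 to 4 and higher on replicate 1. MIR171a read 20.9, 39.4, 252 and 18.9 against 20.5, 63.2, 453 and 23.0 (−0.45, limma adjusted p = 0.208). miR170 and miR171 are known to target the HAM genes, GRAS factors of stem-cell maintenance.

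MIR319b was called lower (log2 ratio −1.74 ± 0.23, n = 4, limma adjusted p = 0.0434), but its arrays split by dye. It read 6.93, 46.9, 28.4 and 39.4 in the bdl cross and 87.6, 290, 41.1 and 43.2 in the Col-0 cross. The log2 ratios were −3.66 and −2.63 where the bdl cross was in Cy5 and −0.53 and −0.13 where it was in Cy3. Each cross was above blank spots on 2 of 4 arrays. The bdl values on replicates 1 and 4 lay under the blank-spot limits of 77.1 and 81.2, so no fold is given. Without the dye term the adjusted p was 0.158 in limma. miR319 targets the TCP factors of leaf growth.

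**Figure D3:**
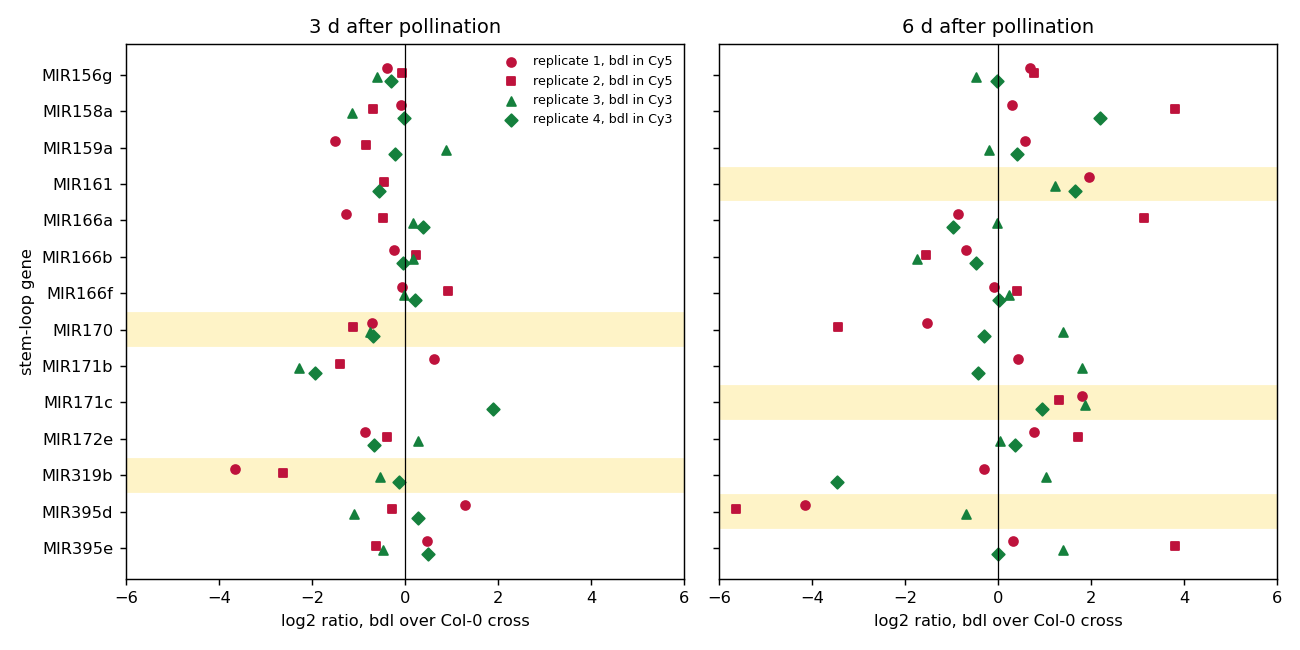
Log2 ratio of the bdl over the Col-0 cross (horizontal axes) on each array at 3 d (left) and 6 d (right) for 14 stem-loop genes: the 10 of highest intensity and every one called. Red symbols have the bdl cross in Cy5, green in Cy3, and a yellow band marks a call at that stage. MIR170 lies between −1.12 and −0.69 at 3 d and between −3.45 and 1.40 at 6 d.

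The ratios of stem-loop genes moved with those of the blank spots from array to array. The median log2 ratio of the blank spots was 1.28 on replicate 1, −1.18 on replicate 2, −1.32 on replicate 3 and 0.79 on replicate 4, a pattern that does not follow the dyes. The 39 stem-loop genes that were not above blank spots on 2 arrays had medians of 2.01, −0.21, −0.39 and 1.01, over the 8 to 30 of them with a ratio on an array. The 36 that were had medians of −0.06, −0.47, −0.56 and 0.10. For the 15 above blank spots on all 4 arrays the medians were −0.08, −0.38, −0.61 and 0.03. Gene probes of all intensities had medians from −0.01 to 0.01. Dim gene probes were not set apart, so whether they also moved with the blank spots was not tested. With a term that follows the sign of the blank spots in place of the dye term, 4 stem-loop genes were called, 1 higher and 3 lower; MIR170 kept its call (limma adjusted p = 0.0242) and MIR319b did not (adjusted p = 0.219). The part of the blank-spot signal in these ratios was not tested beyond that.

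**Figure D4:**
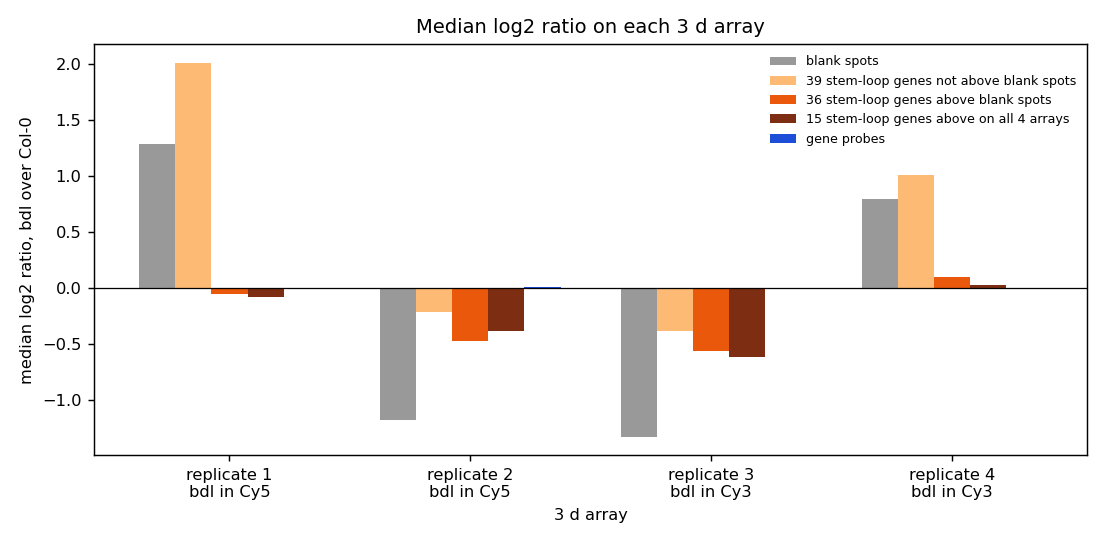
Median log2 ratio of the bdl over the Col-0 cross (vertical axis) on each 3 d array for blank spots, for stem-loop genes split by their signal, and for gene probes, whose bars are too short to see. Stem-loop medians are lower on replicates 2 and 3 than on replicates 1 and 4 in every group, as are those of the blank spots.

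The comparison at 6 d called 3 stem-loop genes of 40 tested, 2 higher and 1 lower in the bdl cross. Over all 23801 probes 11768 were called (49.4%), with 24.3% higher and 25.2% lower, so the stem-loop share of 7.5% lay under the background. Only log2 ratios were analysed for this stage, with no intensities, so signal over blank spots is unknown there. Their rows were named through equal ratios at 3 d, which named 69 of the 75 stem-loop genes, and their direction was taken to run as at 3 d. The 40 ratios ran from −2.78 to 3.07 with a median of 0.17 (−0.03 over all probes), and 26 were positive. The median SD over arrays was 1.21 against 0.24 for gene probes, again without a comparison to gene probes as dim at 3 d.

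MIR171c was called higher in the bdl cross at 6 d (log2 ratio 1.49 ± 0.22, n = 4, limma adjusted p = 0.0172). Signal over blank spots is unknown at 6 d, so no fold is given for stem-loop genes at this stage. Its array ratios were 1.81, 1.30, 1.87 and 0.95, all above 0. The row was named by 1 equal ratio, since at 3 d MIR171c had a value on replicate 4 alone, where it read 110 in the bdl cross and 29.7 in the Col-0 cross. The call was lost without replicate 1 (adjusted p = 0.0642 in limma) or replicate 2 (adjusted p = 0.0576). Of its family, MIR170 read −1.52, −3.45, 1.40 and −0.30 at 6 d, and MIR171b read 0.43, 1.81 and −0.44, with fitted ratios of −0.97 and 0.56. Neither passed (limma adjusted p = 0.221 and 0.571).

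MIR161 was called higher at 6 d (log2 ratio 1.70 ± 0.16, n = 3, limma adjusted p = 0.02), with ratios of 1.96, 1.22 and 1.66. Its adjusted p in limma was 0.0522 when the spread followed intensity. At 3 d the bdl cross exceeded the blank-spot limit on 1 array and the Col-0 cross on none. miR161 is known to target messages of pentatricopeptide repeat proteins. MIR395d was called lower at 6 d (log2 ratio −2.78 ± 0.45, n = 3, limma adjusted p = 0.0458). Its ratios were −4.14 and −5.62 with the bdl cross in Cy5 and −0.68 with it in Cy3, and without the dye term the adjusted p was 0.0940 in limma. The neighbouring MIR395e read 0.33, 3.81, 1.39 and 0.00 at 6 d and did not pass (adjusted p = 0.227 in limma).

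Other members of the families with at least 3 genes above blank spots differed among themselves. MIR166f had ratios of −0.07, 0.92, −0.03 and 0.20 at 3 d (0.26 ± 0.21, limma adjusted p = 0.450). At 6 d they were −0.08, 0.40, 0.23 and 0.02 (0.14 ± 0.12, adjusted p = 0.408 with limma). MIR166a ran from −0.97 to 3.13 and MIR166d from −1.05 to 4.63 over the 6 d arrays. MIR156g read 0.69, 0.77, −0.47 and −0.03 at 6 d, positive where the bdl cross was in Cy5 and negative where it was in Cy3 (0.24 ± 0.11, limma adjusted p = 0.164). MIR156c read 27.0, 27.6, 52.5 and 173 against 22.0, 69.8, 144 and 199 at 3 d, and its log2 ratio of −0.67 did not pass (limma adjusted p = 0.335). All 3 miR156/miR157 genes tested at 3 d had negative ratios, from −0.67 to −0.27, and none was called. Among the 5 miR395 genes tested at 3 d, 2 ratios were positive and 3 negative, from −0.06 to 0.44.

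The difference between stages was tested directly for 28 stem-loop genes, and 1 was called. Over all 21032 probes 9275 were called (44.1%). MIR166b shifted by −1.14 ± 0.33 on the log2 scale from 3 d to 6 d (n = 8, limma adjusted p = 0.0332). At 3 d the ratios were −0.24, 0.23, 0.16 and −0.04. At 6 d they were −0.68, −1.54, −1.75 and −0.47, so the stages did not overlap. The 6 d ratio alone did not pass (−1.11 ± 0.32, limma adjusted p = 0.0684), and the shift lost its call without replicate 1 (adjusted p = 0.0521), replicate 2 (adjusted p = 0.141) or replicate 3 (adjusted p = 0.0958). miR166 restrains the HD-ZIP III genes. Of 26 stem-loop genes tested at both stages, 11 had the same sign at both, and none was called at both.

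Messages that microRNA families are known to target were measured on the same arrays. A list of 78 targets of 23 families had 70 genes above blank spots on at least 2 arrays at 3 d. Of the listed families, miR390, miR403, miR408 and miR824 had no stem-loop probe here. The list held no target of miR158, miR161 or miR173. At 3 d, 3 of 70 tested were higher in the bdl cross and 5 lower (4.29% and 7.14%, near the 5.99% and 5.07% of all probes), with a median log2 ratio of −0.04. At 6 d, 15 of 71 were higher and 32 lower (21.1% and 45.1%, against 24.3% and 25.2% of all probes), with a median of −0.33 against −0.03. The listed targets were brighter at 3 d, with a median mean intensity of 342 against 226.9 for gene probes. Gene probes of like intensity were not compared, so these shares are not matched for brightness.

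Among targets of the families with called stem-loop genes, falls outnumbered rises at 6 d, in lists of 3 to 5 genes. HAM1, a target of miR170/miR171, was lower at both stages (−1.09 ± 0.08 at 3 d and −0.89 at 6 d; limma adjusted p = 0.0311 and 0.00533), and HAM2 was lower at 6 d alone (−1.76 ± 0.07, limma adjusted p = 0.00337). The 6 d counts that follow stand against 24.3% of all probes called higher and 25.2% called lower. Of 5 miR319 targets none was called at 3 d and 4 were lower at 6 d, TCP2 by −2.83 ± 0.14 on the log2 scale. Of 5 HD-ZIP III genes, PHB was lower at 3 d (−0.99 ± 0.08, limma adjusted p = 0.0322), and 4 were lower at 6 d. Of 4 miR395 targets 1 was higher and 1 lower at 6 d.

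Targets of other families included some of the largest ratios at 6 d. All 4 miR164 targets had positive ratios at both stages, and 3 of 4 were called higher at 6 d (24.3% of all probes were), among them CUC1 (2.34 ± 0.07), a boundary factor. At 3 d NAC092, an ageing-related NAC factor, exceeded the blank-spot limit on 2 arrays in the bdl cross and on none in the Col-0 cross. Its fitted ratio was called higher (n = 3, limma adjusted p = 0.0318). The fold is given only as a bound over 3 arrays, at least 2.91-fold, and the p-value does not test that bound. At 6 d the log2 ratio of NAC092 was 3.32 ± 0.06. No stem-loop gene of miR164 or miR398 was above blank spots on 2 arrays. At 3 d MIR164c had a value on replicate 2 alone, 2040 in the bdl cross and 63.9 in the Col-0 cross. Its 6 d row, named by 1 equal ratio, read 3.38 and 3.31 on replicates 1 and 2. MIR164a read 8.66 and 9 on replicate 4 at 3 d, and 0.55 and −0.32 at 6 d. Both had too few values to test. All 3 miR398 targets were higher at 6 d, led by the superoxide dismutase gene CSD1 (3.07 ± 0.08), as were all 3 miR159 targets, led by MYB101 (2.87 ± 0.08) and MYB65 (1.92 ± 0.09). ARPN, a target of miR408, which has no stem-loop probe here, read 4.70 ± 0.09 at 6 d. Of 4 listed miR408 targets 2 were tested at 6 d, and LAC13 was not called (−0.47, limma adjusted p = 0.0511). Targets lower in the bdl cross at 6 d included GRF7 (−3.12 ± 0.12, n = 3), NF-YA2 (−2.19 ± 0.07), SPL13A (−2.12 ± 0.07) and TOE1 (−2.09 ± 0.34). Their families were mixed at 6 d. Of 7 miR396 targets tested 4 were lower and 1 higher, and of 6 miR169 targets 4 were lower and 1 higher. Of 8 miR156 targets 2 were lower and 1 higher, and of 6 miR172 targets 3 were lower and 0 higher. NF-YA2 and SPL13A were already at −1.80 and −1.77 at 3 d, without a call (limma adjusted p = 0.0817 and 0.0505). Neither was called between stages (limma adjusted p = 0.359 and 0.360). For the 6 d ratios of called targets named here limma's adjusted p ran from 0.00335 to 0.0218.

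**Figure D5:**
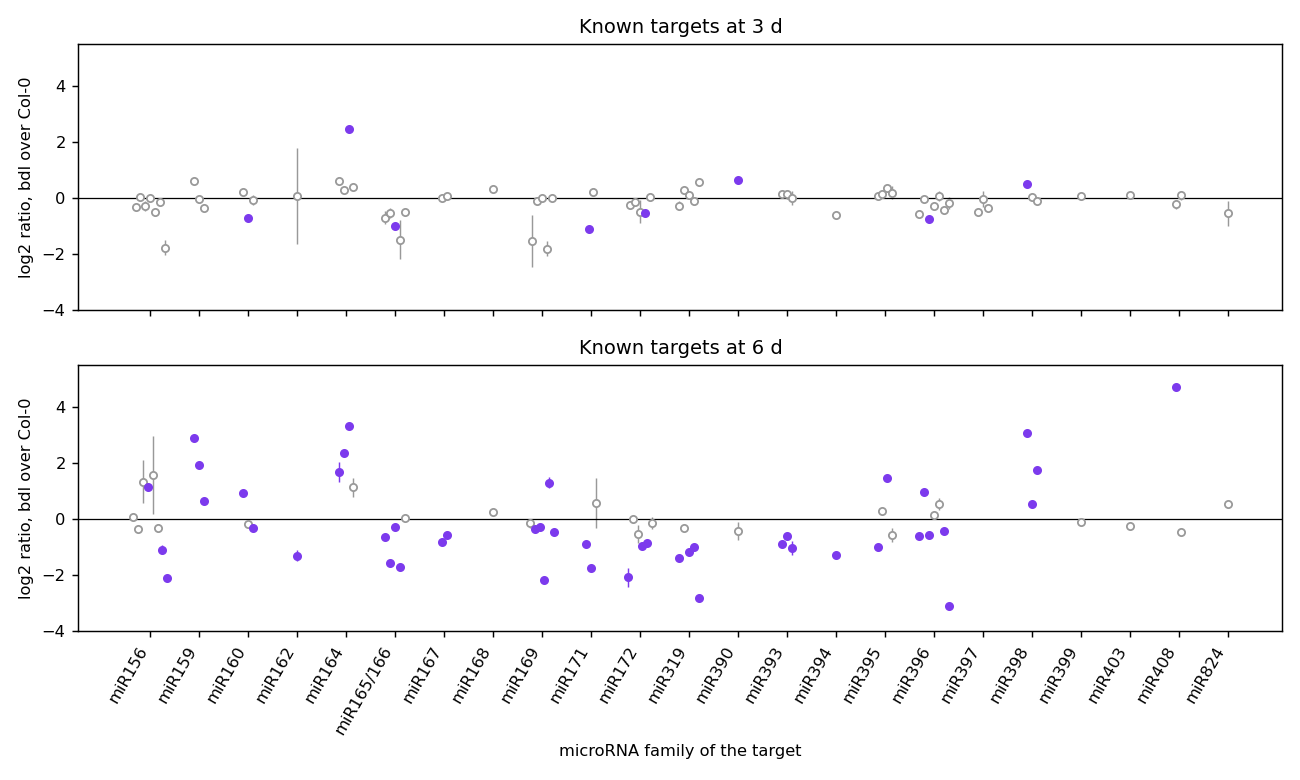
Log2 ratio of the bdl over the Col-0 cross (vertical axes) for known targets of each listed microRNA family (horizontal axis). The panels show 3 d (top) and 6 d (bottom), with bars of 1 SE. Filled points passed the test at an adjusted p under 0.05 and open points did not; at 6 d, 15 targets were called higher and 32 lower.

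Listed genes of small RNA pathways included more falls than rises at 6 d. The list covers genes that make or use microRNAs, and also siRNA factors (AGO4, DCL2, DCL3, DCL4, RDR6 and SGS3). Of 22 tested, 2 were lower and none higher at 3 d (limma; 5.07% and 5.99% of all probes), and 12 were lower and 1 higher at 6 d (25.2% and 24.3% of all probes), with a median of −0.51. The gene called higher was DCL3, an siRNA factor. The listed genes were also brighter at 3 d (median mean intensity 467) than gene probes (226.9), and probes of like intensity were not compared. AGO10, the ARGONAUTE that binds miR165/miR166, was lower at both stages (−1.29 ± 0.07 and −1.54 ± 0.06). SE, which encodes SERRATE, was lower at 6 d (−1.41 ± 0.23), as was SGS3 (−1.15 ± 0.22), a trans-acting siRNA factor. DCL1, the microRNA-cutting enzyme and itself a miR162 target, read −0.05, −0.65 and −2.27 at 6 d (−1.31 ± 0.20, n = 3, limma adjusted p = 0.0420), lower on the array with the bdl cross in Cy3 than on those with it in Cy5. Without the dye term its log2 ratio was −0.99 (adjusted p = 0.225 in limma), and at 3 d it was above blank spots on 1 array in each cross.

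Markers of embryo and of the tissues around it were both present at 3 d and differed between the crosses. All 8 embryo markers were above blank spots on all 4 arrays, with summed intensities of 16773 to 51436 in the bdl cross and 10473 to 32970 in the Col-0 cross. Of 10 endosperm markers 7 were above on all 4 arrays, with sums of 12120 to 16367 against 7023 to 8448, and no marker was listed at 0. Of 12 seed coat markers 10 were above on all 4 arrays, with sums of 112807 to 201792 against 71536 to 139981. In each cross 2 endosperm and 2 seed coat markers had no value on some array and added 0 to that sum. The brightest markers weighed most (mean intensity 12939 for LEC1, 6135 for MPC and 39906 for BAN), so a sum is not a tissue-wide level. At 3 d, where 5.99% of all probes were called higher and 5.07% lower, 5 of 8 embryo markers were higher and 1 lower, 2 of 8 endosperm markers tested were higher and 3 of 11 seed coat markers were higher. At 6 d, against 24.3% and 25.2%, 3 of 7 embryo markers tested were higher and 1 lower, 4 of 8 endosperm markers were higher, and 6 of 10 seed coat markers were higher and 1 lower. Their part in the ratios of the stem-loop genes and their targets was not tested, and fewer cells of a type cannot be told apart from less RNA per cell.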

How the data were processed

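For the 3 d arrays the authors deposited 1 linear intensity per spot and cross. Background was taken as already subtracted, since blank-spot intensities had medians of 7.0 to 24.1. Channels were balanced at the median, where gene-probe log2 ratios lay from −0.01 to 0.01. They were not balanced at the blank spots, whose log2 ratios had medians from −1.32 to 1.28. Neither step was repeated for the main fit, although normexp and loess had been planned for raw signals. All intensities under 100 were square roots of whole numbers (within 0.02). For the 6 d arrays only the authors' deposited table of log2 ratios was used, with column medians over gene probes of −0.03 to −0.02. Its scale and direction are unstated. At 3 d its ratios equal log2 of bdl over Col-0 intensity (largest difference 4.71e-08), so 6 d was read the same way. The scanner, the image software and the normalization method were not given in the sources used here.

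Rows of the table were named by equal 3 d ratios: all 2222, 3065 and 19374 rows with 2, 3 and 4 values matched 1 probe, as did 2243 of 2267 rows with 1 value. Of the 69 stem-loop genes named, 15 rest on 1 value. MIR157b, MIR160c, MIR165a, MIR169d, MIR171a and MIR172b have no 6 d value here.

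For 3 d, probes stayed in where either cross exceeded the 95th percentile of blank spots on at least 2 of 4 arrays. Probes with values on at least 3 arrays and both dye orientations were fitted with limma 3.58.1 (R 4.3.3), with a dye term for each probe, so a ratio is the mean of its values in the 2 orientations; adjusted p-values are Benjamini-Hochberg over all probes. Errors are SE from limma unless named SD, and fold changes are 2 to the power of the log2 ratio. The fit was run on simulated ratios with independent noise and a dye effect for each probe. These held no shift between arrays like that of the blank spots, so that run cannot show how such a shift affects the calls. Same-numbered arrays of the 2 stages did not deviate together (correlations −0.08 to −0.03), so numbers were not used as pairs. Slides and scan dates are not given, so no batch was tested; p-values measure the spread between these arrays.

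Named were all stem-loop genes called, the 10 of highest mean intensity above blank spots on all 4 arrays, families with at least 3 genes above blank spots, and list genes called with a log2 ratio of at least 1 (at most 12 a list and stage). A listed gene took its probe of highest mean intensity. The members and lists were chosen with earlier results of these data known. RefSeq (TAIR10.1) gave names and neighbours; no sequence was used here.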

Additional observations from a re-analysis of the deposited data

Results flagged for a closer look

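MIR166a on replicate 1 of the 3 d arrays read 1899 in the bdl cross and 4570 in the Col-0 cross, far from the other 3 arrays in either cross. Its log2 ratio on that array, −1.27, was also the lowest of the 4. MIR170 had a log2 ratio of −1.12 on replicate 2 at 3 d, apart from −0.75 to −0.69 on the other arrays, which share its direction. MIR172e read 54.1 in the bdl cross on replicate 1 against 87.0 to 89.9 on the other arrays. These are 4 of 44 sets of 4 values in which the end value stood apart by Dixon's criterion, and chance alone gives about 1 in 20 such sets.

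The difference between stages itself was tested for MIR166b, whose ratio of the bdl over the Col-0 cross was lower at 6 d than at 3 d by −1.14 on the log2 scale (limma adjusted p = 0.0332).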

How the results depend on the processing

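With limma throughout, the count of 2 stem-loop genes called at 3 d became 1 without the dye term and with the ratios of the deposited table. It became 4 with a term that follows the sign of the blank spots. It became 0 with an intensity trend, without the filter on dim probes and with both crosses above blank spots on all 4 arrays, where 3, 3 and 1 had an unadjusted p under 0.05. It stayed at 2 with loess or 1 probe a locus. With 1 array left out it was 0 to 2; with the dye term kept, no probe of any kind was called, so those fits say nothing of single genes. At 6 d the count of 3 became 1 among genes with values on all 4 arrays and 1 to 3 with 1 array left out (1 without replicate 1, 2 or 3). Between stages the count of 1 became 3 without the dye term or with an intensity trend, and 0 to 2 with 1 array left out (0 without replicate 1 or 2, 2 without replicate 3). With the replicate block it was 0 (4 with an unadjusted p under 0.05; MIR166b adjusted p = 0.0698), and 8114 probes in all were called against 9275. The labels do not say that numbers pair the arrays. The count of 36 genes above blank spots became 14 at the 99th percentile and 15 on all 4 arrays, 40 against EMPTY and 29 against 3XSSC spots alone, and 29 to 33 with 1 array left out.

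None of the 6 called ratios changed sign under the alternatives run. MIR170 kept its call in 9 of 15, MIR319b in 2 of 15, MIR171c in 10 of 12, MIR161 in 4 of 5, MIR395d in 4 of 6 and MIR166b in 6 of 12. With 1 array left out, MIR170 ran from −0.92 to −0.71, MIR319b from −2.27 to −1.10, MIR171c from 1.26 to 1.72 and MIR166b (stages) from −1.37 to −0.88. Signs changed at 3 d for uncalled ratios near 0: with arrays left out, MIR166a ran from −0.52 to 0.028 (0.028 without replicate 1 and no dye term), MIR166b from −0.092 to 0.14 (−0.042 and −0.020 without replicates 2 and 3 and no dye term) and MIR395e from −0.32 to 0.24 (0.16 and 0.11 likewise). Among listed genes, SE and TOE1 lost the 6 d call in 2 of 13 alternatives each, SGS3 in 3 of 13 and DCL1 in 3 of 6. The causes were not tested. Signal close to blank spots limits what the stem-loop probes can show.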
